A study of Arabidopsis thaliana with 9 samples.

Results

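The 10 genes described here encode or control the synthesis of flavonols and anthocyanins in Arabidopsis thaliana, and were taken by locus from a table of 27655 genes. They comprise 5 early steps (TT4, CHI, F3H, F3'H and FLS1), 3 late steps (DFR, LDOX and UGT75C1) and 2 transcription factors of the pathway (PAP1 and MYB12). The rule that picks them is a list of loci without a measured threshold, though the list was drawn up with earlier results of these data known. Their messenger RNA was measured in 9 libraries of 10-day-old seedlings that grew at 22 °C under days of 16 h light and 8 h dark. There were 3 libraries of the line labelled h3.3ko;HTR5 G34R (G34R below), 3 of the line labelled h3.3ko;HTR5 G34W (G34W) and 3 of the wild type, labelled WT (Col). By the usual notation, both lines lack their own histone H3.3 and carry an HTR5 gene in which glycine 34 is replaced by arginine or by tryptophan. Both lines thus share the h3.3ko background, and h3.3ko seedlings with an unchanged HTR5 were not analysed here. In a comparison with WT the effect of the substitution and that of the background cannot be told apart. The labels give neither the promoter of the HTR5 gene nor the number of independent lines, and leave unsaid whether replicates came from separate plantings. The p-values therefore reflect the spread among these 9 libraries alone, and that spread may be technical.

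Flavonoids are made from phenylalanine. Chalcone synthase commits the pathway, and the shared early steps lead to dihydroflavonols. From there flavonol synthase makes flavonols, which absorb ultraviolet light, and dihydroflavonol reductase opens the branch to the red and purple anthocyanins. In Arabidopsis seedlings the early genes and FLS1 are activated by MYB12 and its relatives MYB11 and MYB111, while the late genes are activated by a complex of a MYB such as PAP1, a bHLH protein such as TT8, GL3 or EGL3, and the WD40 protein TTG1.

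In G34W seedlings the early genes TT4, CHI, F3H and FLS1 were higher than in WT and the late genes DFR, LDOX and UGT75C1 were lower. Among all tested genes, 44.8% were called higher in G34W than in WT and 13.1% lower. In G34R seedlings the same 3 late genes were lower than in WT, while among the early genes CHI was higher, F3H was lower, and TT4, F3'H and FLS1 passed no test. Between the lines, TT4, F3H and FLS1 were higher in G34W than in G34R and DFR was lower. With median-ratio scaling of the libraries, the CHI difference was not called in either line and the F3H difference was not called in G34W minus WT, whereas TT4 and FLS1 were called lower in G34R.

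The values are TPM, a level scaled for gene length and library size, which in this table match reads divided by the full span of a gene, introns included, so levels are compared between genes on that per-length scale. The recovered reads numbered 12889624 to 14730745 per library. Differences are log2 fold changes of TPM + 1 with their standard errors, tested by limma over the 18544 genes that averaged 1 TPM or more, and a gene is called at a Benjamini-Hochberg adjusted p under 0.05. The pseudocount of 1 understates the changes of genes at a few TPM. The comparisons with WT share the WT libraries. In the lines, HTR8 averaged 4.95 TPM in G34R and 5.53 TPM in G34W, against 210 TPM in WT, and HTR4 averaged 135 TPM in G34R and 159 TPM in G34W, against 418 TPM in WT. HTR5 averaged 357 TPM in G34R and 380 TPM in G34W, against 333 TPM in WT, though the H3.3 genes are near-identical copies that can exchange reads.

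Many genes differed between these seedlings. In G34R minus WT 51.1% of the tested genes were called, 34.6% higher and 16.5% lower. In G34W minus WT 57.8% were called, 44.8% higher and 13.1% lower. In G34W minus G34R 33.3% were called, 21.5% higher and 11.8% lower. The median log2 fold change of all tested genes was 0.10 in G34R minus WT, 0.21 in G34W minus WT and 0.07 in G34W minus G34R. Median-ratio scaling of the TPM moved those medians by -0.12, -0.20 and -0.08. It also moved the share of higher genes among the calls to 48.7%, from 67.7% as deposited, in G34R minus WT. That share was 49.95% under the scaling and 77.4% as deposited in G34W minus WT, and 43.4% under the scaling and 64.5% as deposited in G34W minus G34R. Directions that depend on this scaling are named with each gene below.

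Of the 10 genes, 8 reached the mean of 1 TPM, and PAP1 and MYB12 did not. Among those 8, 1 was called higher and 4 lower in G34R minus WT, 4 higher and 3 lower in G34W minus WT, and 3 higher and 1 lower in G34W minus G34R. Their median log2 fold changes were -0.16, 0.24 and 0.27 in the same order of comparisons, and -0.29, 0.04 and 0.20 with median-ratio scaling. The median of 0.24 in G34W lies close to the 0.21 of all genes, and it averages early genes that were higher with late genes that were lower. Counted by overlap, 1 of the 8 lay wholly above WT in G34R and 5 below, beside 56.8% of all tested genes without overlap (37.9% above, 18.9% below). In G34W minus WT 4 lay above and 3 below, beside 65.2% of all genes (50% above, 15.2% below). In G34W minus G34R 3 lay above and 1 below, beside 45.3% of all genes (29.3% above, 16% below).

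The promoters of 4 genes are shown because these genes carry the contrast: TT4 and FLS1 are the early genes with the largest fold changes in G34W minus WT, and DFR and LDOX are the first steps of the anthocyanin branch. Each sequence holds the 250 bases before the annotated gene start, 5′ to 3′ on the gene's strand, from the RefSeq sequence of TAIR10.1. Capitals mark the MYB recognition element (the word ACCAAAC, the word ACCAACC, the word ACCTAAC or the word ACCTACC) and the G-box CACGTG, which bHLH and bZIP proteins bind, searched on both strands.
TT4, chr5:4488226-4488475, plus strand: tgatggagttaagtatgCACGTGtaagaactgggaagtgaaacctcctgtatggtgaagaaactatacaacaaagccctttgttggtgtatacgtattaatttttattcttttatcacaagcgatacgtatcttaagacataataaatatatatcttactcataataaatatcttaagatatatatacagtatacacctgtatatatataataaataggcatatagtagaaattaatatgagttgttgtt
FLS1, chr5:2803583-2803832, plus strand: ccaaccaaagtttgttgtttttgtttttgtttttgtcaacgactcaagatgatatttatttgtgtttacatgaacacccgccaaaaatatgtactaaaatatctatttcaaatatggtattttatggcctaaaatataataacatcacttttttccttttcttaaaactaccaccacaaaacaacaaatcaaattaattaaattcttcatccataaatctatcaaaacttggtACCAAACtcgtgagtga
DFR, chr5:17166033-17166282, minus strand: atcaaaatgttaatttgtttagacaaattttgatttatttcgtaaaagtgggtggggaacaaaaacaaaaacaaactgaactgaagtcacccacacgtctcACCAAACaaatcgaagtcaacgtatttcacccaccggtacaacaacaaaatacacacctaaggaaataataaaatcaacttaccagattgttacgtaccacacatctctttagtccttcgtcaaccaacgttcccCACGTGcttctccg
LDOX, chr4:12006210-12006459, minus strand: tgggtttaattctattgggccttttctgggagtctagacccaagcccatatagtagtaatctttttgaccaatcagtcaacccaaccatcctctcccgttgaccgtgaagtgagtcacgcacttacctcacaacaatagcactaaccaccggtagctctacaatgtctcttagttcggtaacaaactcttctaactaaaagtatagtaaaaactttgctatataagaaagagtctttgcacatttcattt
Counting back from the gene start at -1, TT4 held a G-box at -233 to -228. FLS1 held ACCAAAC at -17 to -11, and DFR held ACCAAAC at -149 to -143 and a G-box at -14 to -9. No match lay in the window of LDOX. Among the windows of 27444 genes, 13.7% held a MYB recognition element, 6.49% a G-box and 0.966% both. Over the 10 genes, 4 held a MYB recognition element (FLS1, DFR, UGT75C1 and PAP1), and 4 held a G-box (TT4, F3H, DFR and MYB12), with DFR holding both. The E-box CANNTG, which contains the G-box, was in 6 of the 10 and in 55.3% of all windows. These are matches of letters only.

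TT4 (AT5G13930) encodes chalcone synthase, the first committed enzyme of the pathway, and lies on chromosome 5 at 4488476 to 4490264 on the plus strand with 2 exons (TAIR10.1, as for all positions here). It read 131.7, 119.4 and 116.4 TPM in G34R and 213.3, 197.1 and 209.7 TPM in G34W, against 127.9, 132.2 and 127.1 TPM in WT. All 3 G34W libraries lay above every other library, and the G34R and WT libraries overlapped. The log2 fold change was 0.67 ± 0.05 in G34W minus WT (adjusted p = 5e-09, limma) and 0.75 ± 0.05 in G34W minus G34R (adjusted p = 6.33e-09). In G34R minus WT it was -0.08 ± 0.05 (adjusted p = 0.193, limma). That value passed the threshold with median-ratio scaling (-0.21, adjusted p = 0.00742), with quantile normalization (-0.15, adjusted p = 0.0188), and without G34R replicate 1 (-0.13, adjusted p = 0.0226).

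FLS1 (AT5G08640) encodes the main flavonol synthase and draws dihydroflavonols into flavonols. It lies on chromosome 5 at 2803833 to 2805606 on the plus strand and has 3 or 4 exons in its annotated transcripts. Its level was 22.4, 21.6 and 22.8 TPM in G34R and 39.9, 44.8 and 39.6 TPM in G34W, against 24.1, 24.8 and 24.4 TPM in WT. The G34W libraries again stood above all others, and every G34R library lay below every WT library. FLS1 had the largest log2 fold change of the 8 tested genes in favour of G34W: 0.74 ± 0.07 over WT (adjusted p = 1.03e-07, limma) and 0.87 ± 0.07 over G34R (adjusted p = 5.79e-08). In G34R minus WT it was -0.13 ± 0.07 (adjusted p = 0.116, limma), which passed the threshold with median-ratio scaling (-0.26, adjusted p = 0.00345) and with quantile normalization (-0.25, adjusted p = 0.00524).

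F3H (AT3G51240) encodes flavanone hydroxylase, which makes the dihydroflavonols that both branches use, and lies on chromosome 3 at 19025192 to 19026872 on the plus strand. It read 72.4, 67.5 and 73.8 TPM in G34R and 96.1, 98.8 and 95.3 TPM in G34W, against 84.9, 80.7 and 79.6 TPM in WT. The 3 groups did not overlap, with G34W highest and G34R lowest. F3H fell in G34R by 0.20 ± 0.05 (log2 fold change -0.20, adjusted p = 0.00261, limma) and rose in G34W by 0.24 ± 0.05 (adjusted p = 0.000446). The difference G34W minus G34R was 0.44 ± 0.05 (adjusted p = 3.37e-06, limma). The rise in G34W over WT was not called with median-ratio scaling (0.02, adjusted p = 0.735). An antisense gene, AT3G51238, shares 1588 bases with F3H, so reads from that strand could be part of these values.

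CHI (AT3G55120) encodes chalcone isomerase, which closes the flavanone ring, and lies on chromosome 3 at 20430059 to 20431597 on the minus strand with 4 exons. It read 35.0, 33.2 and 35.2 TPM in G34R and 33.4, 40.1 and 38.6 TPM in G34W, against 30.8, 29.7 and 26.9 TPM in WT. Every library of both lines lay above every WT library, and the lines overlapped. The log2 fold change was 0.24 ± 0.07 in G34R minus WT (adjusted p = 0.0137, limma) and 0.35 ± 0.07 in G34W minus WT (adjusted p = 0.000833), with 0.11 ± 0.07 between the lines (adjusted p = 0.278). Neither difference from WT was called with median-ratio scaling (0.11, adjusted p = 0.222 for G34R, and 0.13, adjusted p = 0.153 for G34W) or with quantile normalization (adjusted p = 0.194 and 0.0683). The call in G34R was also lost without WT replicate 3 (0.18, adjusted p = 0.0754).

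F3'H (AT5G07990) encodes flavonoid 3'-hydroxylase, which adds the hydroxyl group that separates quercetin and cyanidin from kaempferol and pelargonidin. It lies on chromosome 5 at 2560328 to 2563137 on the plus strand, with 4 exons, and was the lowest of the early genes in every group. It read 3.51, 3.99 and 2.75 TPM in G34R and 4.06, 3.97 and 5.39 TPM in G34W, against 4.23, 2.94 and 3.69 TPM in WT. The groups overlapped in each comparison, and 50 to 99 reads per library lay behind these values. The log2 fold change was -0.07 ± 0.16 in G34R minus WT (adjusted p = 0.758, limma) and 0.24 ± 0.16 in G34W minus WT (adjusted p = 0.204). F3H was called at the same fold change of 0.24.

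**Figure D1:**
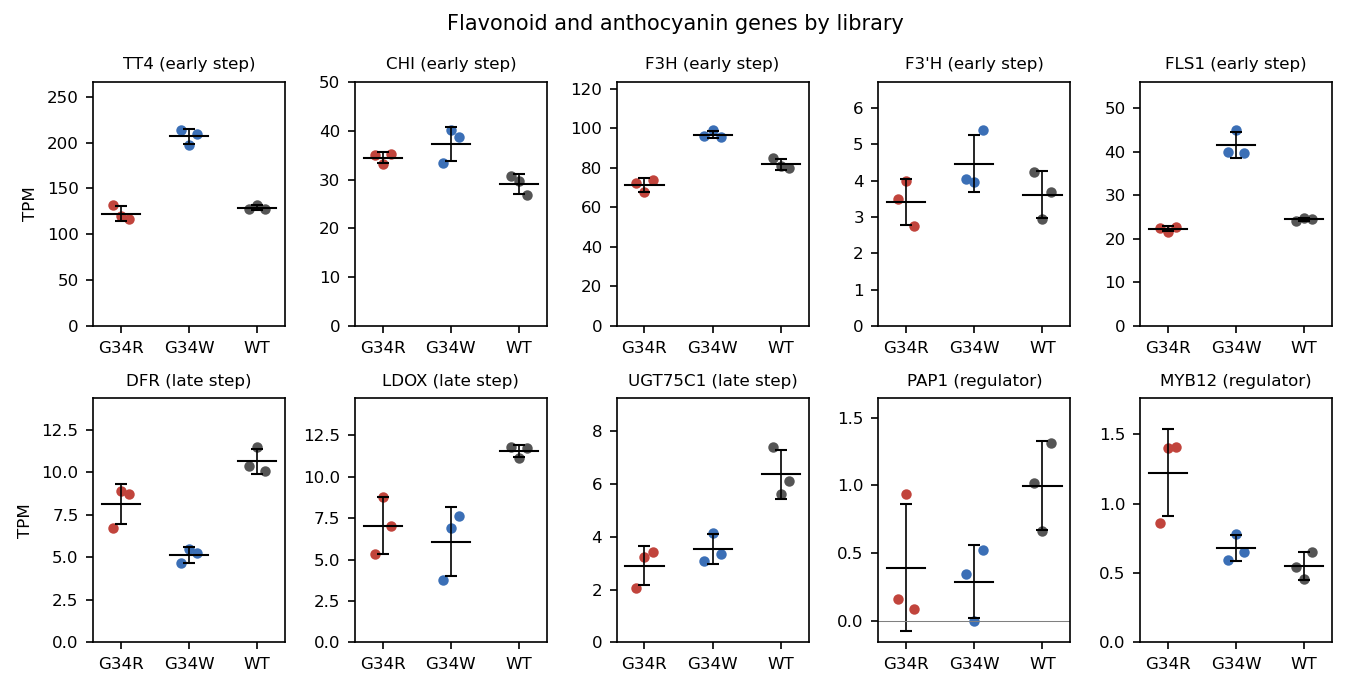
TPM of the 10 genes in each library (points), with the group mean (line) and SD (error bar, n = 3), in G34R, G34W and WT; each panel has its own linear axis. TT4 and FLS1 are highest in G34W, and DFR, LDOX and UGT75C1 are lower in both lines than in WT, while PAP1 and MYB12 lie near or under 1 TPM.

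DFR (AT5G42800) encodes dihydroflavonol reductase, the first enzyme particular to anthocyanins and tannins, which competes with FLS1 for the same substrates. It lies on chromosome 5 at 17164093 to 17166032 on the minus strand with 6 exons. It read 6.75, 8.90 and 8.73 TPM in G34R and 4.64, 5.51 and 5.28 TPM in G34W, against 10.3, 11.5 and 10.1 TPM in WT. The 3 groups did not overlap, with G34W lowest and WT highest. DFR fell in G34R (log2 fold change -0.36 ± 0.12, adjusted p = 0.0204, limma) and in G34W (-0.92 ± 0.12, adjusted p = 6.8e-06), and was lower in G34W than in G34R (-0.57 ± 0.12, adjusted p = 0.00175). The fall in G34R was not called without G34R replicate 1 (-0.24, adjusted p = 0.101) or without WT replicate 2 (-0.30, adjusted p = 0.0828).

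LDOX (AT4G22880) encodes leucoanthocyanidin dioxygenase, also called anthocyanidin synthase, which makes the coloured anthocyanidin, and lies on chromosome 4 at 12004726 to 12006209 on the minus strand. It read 5.31, 8.75 and 7.01 TPM in G34R and 3.74, 6.88 and 7.62 TPM in G34W, against 11.8, 11.1 and 11.7 TPM in WT. Every library of both lines lay below every WT library, and within each line the 3 libraries spread widely. The log2 fold change was -0.67 ± 0.19 in G34R minus WT (adjusted p = 0.0073, limma) and -0.87 ± 0.19 in G34W minus WT (adjusted p = 0.000898). Between the lines it was -0.20 ± 0.19 (adjusted p = 0.435, limma).

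UGT75C1 (AT4G14090) encodes the glucosyltransferase that adds a second sugar to anthocyanins. It lies on chromosome 4 at 8122188 to 8123835 on the minus strand and has 1 exon. It read 2.05, 3.22 and 3.43 TPM in G34R and 3.09, 4.16 and 3.34 TPM in G34W, against 7.40, 5.61 and 6.11 TPM in WT. Again both lines lay wholly below WT and overlapped each other. The log2 fold change was -0.93 ± 0.16 in G34R minus WT (adjusted p = 0.000165, limma) and -0.70 ± 0.16 in G34W minus WT (adjusted p = 0.00166), with 0.23 ± 0.16 between the lines (adjusted p = 0.306). UGT75C1 shares 230 bases with AT4G14100 on the opposite strand, a gene that averaged 18.7 TPM in G34R and 21.5 TPM in G34W, against 17.5 TPM in WT. The log2 fold change of AT4G14100 was 0.10 in G34R minus WT (adjusted p = 0.489, limma) and 0.29 in G34W minus WT (adjusted p = 0.0319), and how its reads enter UGT75C1 was not tested. Another gene on the opposite strand, AT4G06175, shares 217 bases with UGT75C1 and has no values here. Reads from it could also be part of the UGT75C1 values.

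The order of the 3 falls was not tested, and in G34W minus WT it changed with the libraries used: LDOX gave -1.04 without G34W replicate 3, where DFR gave -0.94, and -0.61 without G34W replicate 1, where UGT75C1 gave -0.63. DFR was the late gene with a called difference between the lines. All 3 late genes were called lower in both comparisons with WT, against 16.5% of all genes called lower in G34R and 13.1% in G34W. These 3 calls were also made with median-ratio scaling and with quantile normalization in each comparison, where more of all genes were called lower. With median-ratio scaling 4911 of 18544 genes were called lower in G34R minus WT and 4509 in G34W minus WT. With quantile normalization those numbers were 4961 and 4224. Median log2 fold changes over the 3 late genes were -0.67 in G34R minus WT and -0.87 in G34W minus WT. Over the 5 early genes they were -0.08 in G34R minus WT and 0.35 in G34W minus WT. With median-ratio scaling the early medians were -0.21 in G34R minus WT and 0.13 in G34W minus WT, and the late medians -0.79 in G34R minus WT and -1.07 in G34W minus WT. Of the 5 early genes, 4 were called higher in G34W minus WT as deposited, beside 44.8% of all genes. With median-ratio scaling 2 were called higher there, beside 4500 of 18544 genes.

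**Figure D2:**
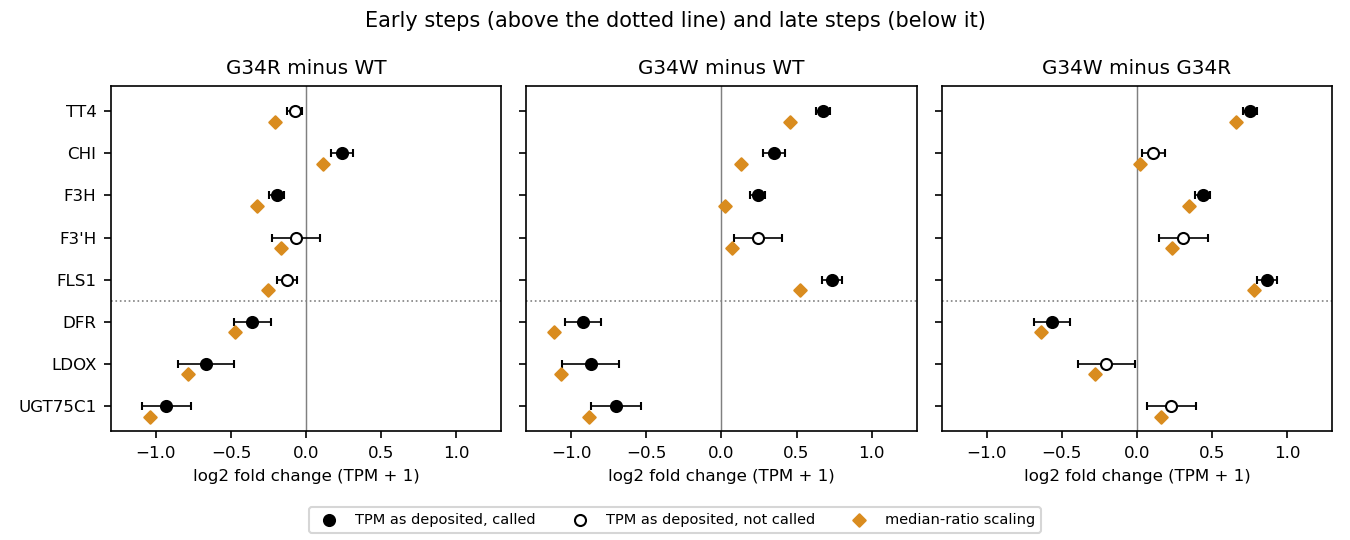
Log2 fold changes of TPM + 1 for the 8 tested genes in the 3 comparisons (circles with SE bars, filled where the adjusted p is under 0.05) and after median-ratio scaling (diamonds). The late genes lie left of 0 against WT in both lines under either scaling, while TT4 and FLS1 lie right of 0 in G34W and left of 0 in G34R.

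Early and late steps were set against each other within each library, as the mean log2(TPM + 1) of the 3 late genes minus that of the 5 early genes. This difference was -2.62, -2.09 and -2.14 in G34R and -3.17, -2.81 and -2.90 in G34W, against -1.67, -1.68 and -1.68 in WT. The groups did not overlap, and the WT libraries lay closest together. The means were -2.29 ± 0.29 in G34R and -2.96 ± 0.19 in G34W, against -1.68 ± 0.00517 in WT (SD, n = 3 each). Relative to WT the late genes thus lay 0.61 lower against the early genes in G34R (difference -0.61, SE 0.17) and 1.28 lower in G34W (difference -1.28, SE 0.11). Between the lines the difference G34W minus G34R was -0.68 (SE 0.20).

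The early genes averaged 4.99 in G34R and 5.48 in G34W, against 5.03 in WT. The late genes averaged 2.70 in G34R and 2.52 in G34W, against 3.35 in WT. As deposited, the early mean in G34R was close to that of WT and the late mean was lower, whereas in G34W the early mean was higher and the late mean was lower. With median-ratio scaling or quantile normalization, 3 of the 5 early genes were called lower in G34R and none higher. Of all 18544 tested genes, 4911 were called lower in G34R minus WT with median-ratio scaling and 4961 with quantile normalization.

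At the branch point, FLS1 and DFR use the same dihydroflavonols. The ratio of their TPM, chosen after their values were seen, was 3.32, 2.43 and 2.61 in G34R and 8.60, 8.14 and 7.51 in G34W, against 2.33, 2.16 and 2.43 in WT. Every G34W library lay above all others, and G34R replicate 2 lay level with the highest WT library. The mean ratio was 2.79 ± 0.468 in G34R and 8.09 ± 0.550 in G34W, against 2.31 ± 0.133 in WT (SD, n = 3 each). A ratio of genes within a library does not depend on the scaling of that library.

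**Figure D3:**
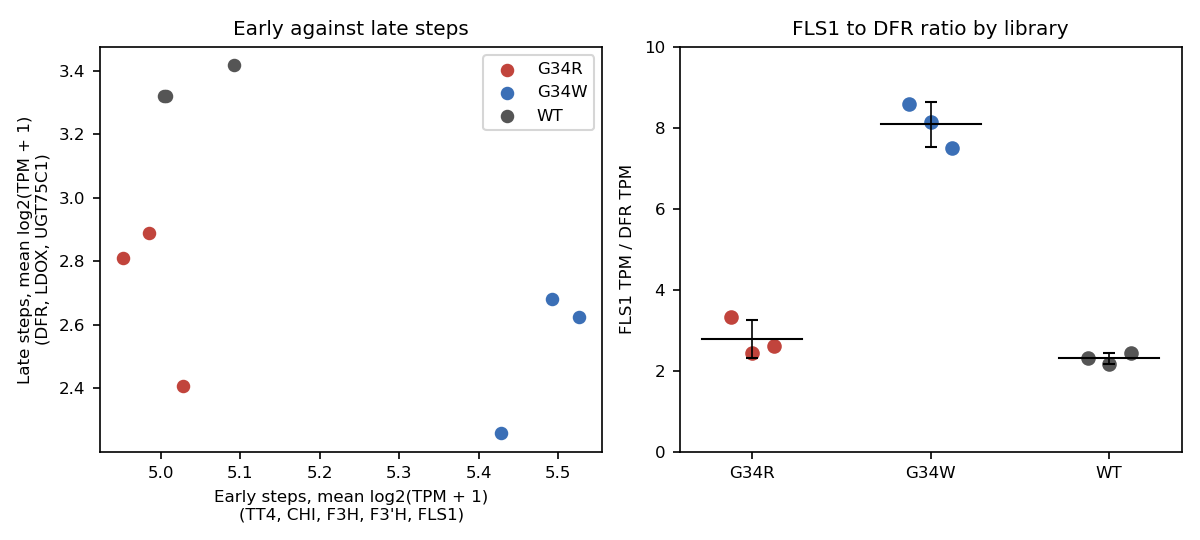
Left, mean log2(TPM + 1) of the 3 late genes against that of the 5 early genes, 1 point per library. Right, ratio of FLS1 TPM to DFR TPM per library with the group mean and SD (n = 3): the G34W libraries lie lower right at left, and at 7.51 to 8.60 at right, above all G34R and WT libraries.

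By level, the 10 genes kept a wide range. The orders below were read per full gene span, introns included, and close ones could differ per transcript length, which was not computed. CHI spans 1539 bases for a longest transcript of 1112, and FLS1 1774 for 1514. LDOX spans 1484 bases for a longest transcript of 1400, and DFR 1940 for 1520. In WT the order was TT4, F3H, CHI, FLS1, LDOX, DFR, UGT75C1, F3'H, PAP1 and MYB12, with group means of 129 TPM at the top and 0.549 TPM at the bottom, and LDOX and DFR overlapped. In G34W FLS1 averaged 41.5 TPM and CHI 37.4 TPM, so that FLS1 stood above CHI in the means, though their libraries overlapped. In G34W, F3'H averaged 4.47 TPM and UGT75C1 3.53 TPM, and in G34R F3'H averaged 3.42 TPM and UGT75C1 2.90 TPM, whereas in WT UGT75C1 stood above F3'H at 6.37 TPM and 3.62 TPM. On the scale of the full span the libraries of F3'H and UGT75C1 overlapped in both lines and not in WT. F3'H spans 2810 bases for a longest transcript of 1929, whereas UGT75C1 has 1648 for both. Their order and overlap could therefore differ per transcript length. Across the 9 libraries TT4 followed FLS1 (Pearson r = 0.97) and F3H (r = 0.89) and ran against DFR (r = -0.87), while LDOX followed DFR (r = 0.83) and UGT75C1 (r = 0.81). Other pairs were weaker: TT4 gave 0.57 with CHI, -0.55 with LDOX and -0.23 with UGT75C1. F3H gave -0.25 with LDOX and 0.18 with UGT75C1. These correlations describe libraries that share 3 groups.

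MYB12 (AT2G47460), the activator of the early genes and FLS1, lies on chromosome 2 at 19476326 to 19479597 on the plus strand with 3 exons. It read 0.861, 1.40 and 1.41 TPM in G34R and 0.596, 0.780 and 0.654 TPM in G34W, against 0.540, 0.454 and 0.653 TPM in WT. Every G34R library lay above every library of the other groups, and G34W and WT overlapped. These values rest on 20, 31 and 31 reads in G34R and 13, 16 and 14 reads in G34W, against 11, 9 and 14 reads in WT. Fitted without the filter on low values, over 23235 genes, its log2 fold change was 0.51 ± 0.12 in G34R minus WT (adjusted p = 0.00618, limma) and 0.11 in G34W minus WT (adjusted p = 0.49). In G34W minus G34R it was -0.40 ± 0.12 (adjusted p = 0.0376, limma), a call that was lost when any of 6 libraries was left out in turn, with adjusted p up to 0.112. That call was also lost with a pseudocount of 0.1 (adjusted p = 0.101, limma) and with only the 2 groups compared (adjusted p = 0.0707). MYB12 was highest in G34R. There, as deposited, F3H was called lower than in WT, CHI was called higher, and TT4, F3'H and FLS1 were not called. The part of MYB12 in the levels of these genes was not tested.

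PAP1 (AT1G56650), the MYB activator of the late genes, lies on chromosome 1 at 21233555 to 21235292 on the minus strand with 3 exons. It read 0.162, 0.934 and 0.0855 TPM in G34R and 0.345, 0 and 0.528 TPM in G34W, against 1.02, 0.665 and 1.32 TPM in WT. All G34W libraries lay below all WT libraries, and G34R replicate 2 lay within the WT range. Only 2, 11 and 1 reads lay behind the G34R values and 4, 0 and 6 reads behind the G34W values, against 11, 7 and 15 reads in WT, and 3 reads correspond to 0.243 to 0.285 TPM for this gene. Without the filter its log2 fold change was -0.56 ± 0.22 in G34R minus WT (adjusted p = 0.0679, limma) and -0.64 ± 0.22 in G34W minus WT (adjusted p = 0.0358). The G34W call was lost when any of 6 libraries was left out in turn, with adjusted p up to 0.181. It was also lost with a pseudocount of 0.1 (adjusted p = 0.0514), without a variance trend (adjusted p = 0.0602) and with the replicate block (adjusted p = 0.0560). The G34R value was called lower with median-ratio scaling (-0.61, adjusted p = 0.0460), with quantile normalization (-0.72, adjusted p = 0.0257) and without G34R replicate 2 (-0.82, adjusted p = 0.0126).

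Around these genes, 48 further loci of the pathway were examined, of which 35 reached the mean of 1 TPM. In G34R minus WT 7 were called higher and 20 lower, with a median log2 fold change of -0.25. In G34W minus WT 12 were higher and 11 lower, with a median of 0.04, and in G34W minus G34R 19 were higher and 3 lower, with a median of 0.21. With median-ratio scaling these counts were 5 higher and 22 lower, 6 higher and 15 lower, and 14 higher and 4 lower. Of all tested genes, 34.6% were called higher and 16.5% lower in G34R minus WT. Those shares were 44.8% and 13.1% in G34W minus WT, and 21.5% and 11.8% in G34W minus G34R. With median-ratio scaling 4665 of 18544 were higher and 4911 lower, 4500 and 4509, and 2492 and 3250. They also stand beside the counts per role and per tissue below.

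The 8 genes of phenylpropanoid supply make the coumaroyl-CoA that chalcone synthase uses. In G34R minus WT 2 were higher and 4 lower, in G34W minus WT 4 were higher and 2 lower, and in G34W minus G34R 7 were higher and none lower. With median-ratio scaling the counts were 1 higher and 5 lower, 2 higher and 3 lower, and 6 higher and none lower. PAL2, a phenylalanine ammonia-lyase that opens phenylpropanoid synthesis, averaged 133 TPM in G34R and 208 TPM in G34W, against 267 TPM in WT. Its log2 fold change was -1.0 ± 0.04 in G34R minus WT (adjusted p = 2.53e-12, limma) and -0.36 ± 0.04 in G34W minus WT (adjusted p = 6.3e-07). 4CL1, a coumarate-CoA ligase, followed the same order with -0.69 in G34R and -0.26 in G34W, both called. C4H, the cinnamate hydroxylase between them, was higher in both lines, by 0.21 in G34R and 0.45 in G34W. The C4H call in G34R was lost with median-ratio scaling (0.08, adjusted p = 0.0666).

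On the flavonol branch 6 of 7 genes were tested. In G34R minus WT 1 was higher and 5 lower, in G34W minus WT 2 were higher and 1 lower, and in G34W minus G34R 5 were higher and none lower. The counts in G34W minus WT became 1 higher and 2 lower with median-ratio scaling. With median-ratio scaling 3 were higher and 1 lower in G34W minus G34R: CHIL and OMT1 lost their calls, and FLS3 was called lower (-0.41, adjusted p = 0.0293, limma). CHIL also lost that call without G34R replicate 2 or 3 or any 1 of the G34W libraries, with adjusted p up to 0.210. FLS3, a close relative of FLS1, read 20.9, 18.8 and 21.6 TPM in G34R and 14.4, 17.3 and 16.9 TPM in G34W, against 8.54, 5.25 and 5.995 TPM in WT. Unlike FLS1, FLS3 was called higher in both lines, with log2 fold changes of 1.52 ± 0.13 in G34R minus WT (adjusted p = 6.03e-08, limma) and 1.20 ± 0.13 in G34W minus WT (adjusted p = 8.99e-07). CHIL, a chalcone isomerase-like protein that aids chalcone synthase, was lower in both lines, by -0.53 in G34R and -0.36 in G34W. UGT89C1, a flavonol rhamnosyltransferase, was lower in G34R (-0.44 ± 0.08, adjusted p = 0.000147, limma), and in G34W minus WT it gave 0.07 (adjusted p = 0.485), a sign that turned with median-ratio scaling (-0.15).

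Among the 8 genes that decorate or transport anthocyanins, 2 were higher and 3 lower in G34R minus WT, 2 higher and 4 lower in G34W minus WT, and 3 higher and 2 lower in G34W minus G34R. The genes higher in both lines than in WT were the coumaroyltransferases 3AT1 and 3AT2, which acylate anthocyanins. Both were also higher in G34W than in G34R, as was the sinapate glucosyltransferase gene UGT84A2 (0.28, adjusted p = 0.0280, limma), whose call was lost with median-ratio scaling (0.19, adjusted p = 0.0984). Against WT, UGT84A2 was called lower in G34R (-0.30, adjusted p = 0.0119, limma), and it averaged 23.0 TPM in G34W and 23.4 TPM in WT. 3AT1 averaged 10.4 TPM in G34R and 15.8 TPM in G34W, against 7.37 TPM in WT, with log2 fold changes of 0.45 in G34R and 1.0 in G34W, both called. 3AT2 gave 0.74 in G34W (adjusted p = 3.61e-05, limma) and 0.29 in G34R (adjusted p = 0.0442), and the G34R call was lost with median-ratio scaling (0.16, adjusted p = 0.239) and without G34R replicate 2 (0.19, adjusted p = 0.213), WT replicate 1 (0.27, adjusted p = 0.106) or WT replicate 2 (0.25, adjusted p = 0.128). SCPL10, which adds sinapoyl groups, was lower in G34W (-0.60, adjusted p = 1.39e-05, limma) and gave -0.11 in G34R (adjusted p = 0.295). The G34R value was called lower with median-ratio scaling (-0.23, adjusted p = 0.0207) and with quantile normalization (-0.22, adjusted p = 0.0252). 5MAT, an anthocyanin malonyltransferase, was lower in both lines, by -0.60 in G34R (adjusted p = 0.00781, limma) and -0.64 in G34W (adjusted p = 0.0042). UGT79B1, which adds xylose to anthocyanins, was called lower in G34W (-0.50, adjusted p = 0.0436, limma), and TT19, a glutathione transferase that carries anthocyanins to the vacuole, in G34R (-0.65, adjusted p = 0.0214). The role thus held genes called in the direction of DFR, LDOX and UGT75C1 and genes called in the other. UGT84A2, 5MAT, UGT79B1 and TT19 were named after their values were seen.

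**Figure D4:**
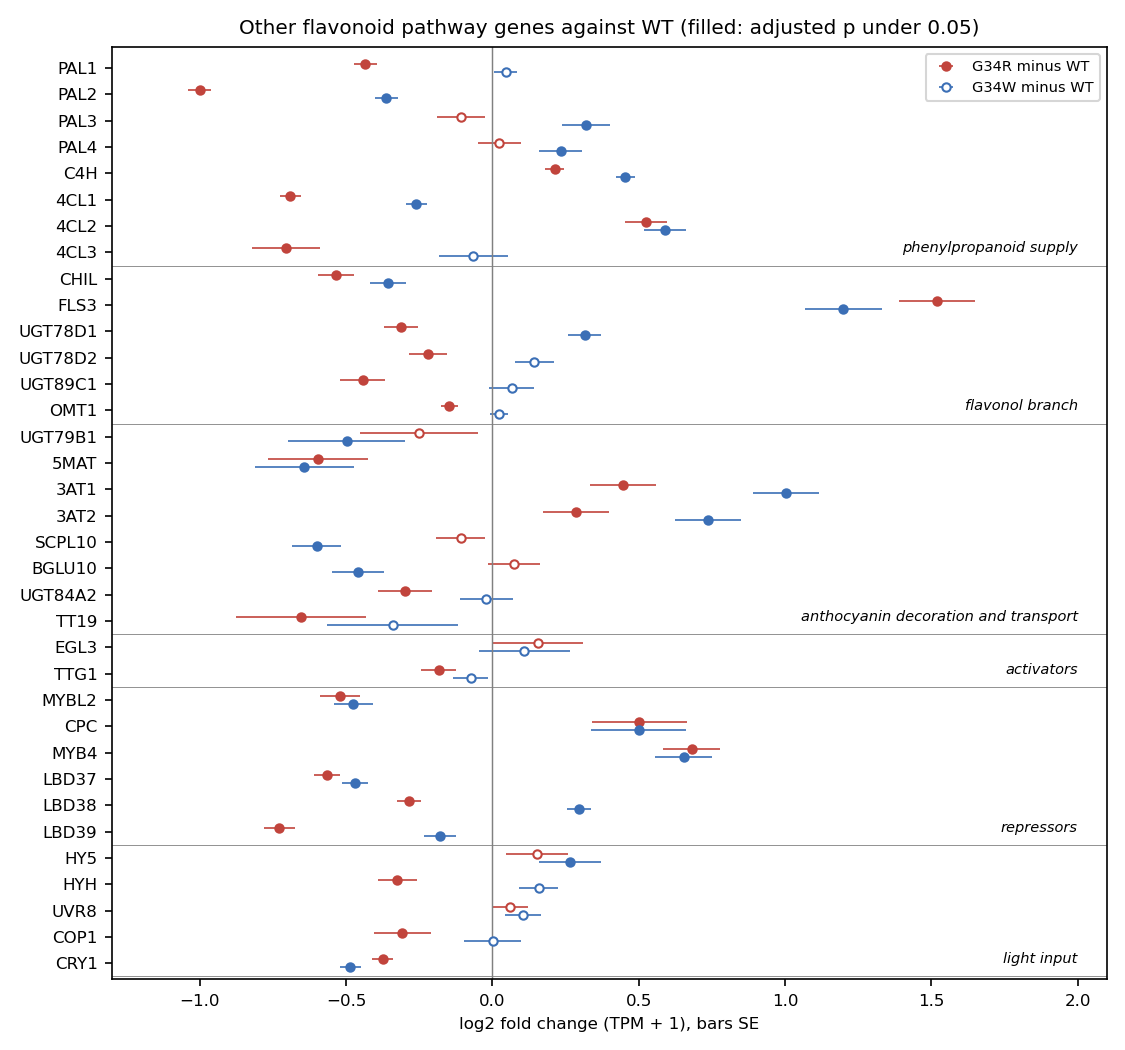
Log2 fold changes of TPM + 1 against WT for the 35 tested pathway genes by role, in G34R and G34W, with SE bars and filled points where the adjusted p is under 0.05. Most supply and flavonol genes lie further left in G34R than in G34W, and FLS3 lies furthest right in both lines.

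Of 9 further activators, 2 were tested. TTG1, the WD40 protein of the late-gene complex, gave -0.18 in G34R minus WT (adjusted p = 0.0166, limma) and -0.07 in G34W minus WT (adjusted p = 0.298), and the G34W value was called with median-ratio scaling (-0.29, adjusted p = 0.000687). Leaving out G34R replicate 2 ended the G34R call (-0.16, adjusted p = 0.0735). The other tested activator, the bHLH gene EGL3, was called in no comparison. MYB113 and MYB114 were at 0 in all 9 libraries. TT8 averaged 0.364 TPM in G34R and 0.165 TPM in G34W, against 0.485 TPM in WT, and MYB111 averaged 0.354 TPM in G34R and 0.618 TPM in G34W, against 0.575 TPM in WT. GL3, another bHLH of the complex, averaged 0.582 TPM in G34R and 0.586 TPM in G34W, against 0.224 TPM in WT, and its groups overlapped. EGL3, TT8, GL3 and MYB111 were named after their values were seen, and TT8, GL3 and MYB111 lie under the filter.

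All 6 repressors of the pathway were tested, with 2 higher and 4 lower in G34R minus WT, 3 higher and 3 lower in G34W minus WT, and 2 higher and none lower in G34W minus G34R. MYBL2, which displaces activating MYB proteins from the late-gene complex, was lower in both lines, by -0.52 in G34R (adjusted p = 7.34e-06, limma) and -0.48 in G34W (adjusted p = 1.77e-05). LBD37 and LBD39, nitrate-induced repressors of anthocyanin synthesis, were also lower. LBD37 gave -0.56 in G34R and -0.47 in G34W, and LBD39 gave -0.73 in G34R and -0.18 in G34W, all called. The LBD39 call in G34W was lost without WT replicate 2 (-0.13, adjusted p = 0.0635). The other 3 repressors, named after their values were seen, each had a called rise in at least 1 line. MYB4 was higher in both lines, by 0.68 in G34R (adjusted p = 2.1e-05, limma) and 0.65 in G34W (adjusted p = 2.9e-05). CPC gave 0.50 in each line (adjusted p = 0.0156 in G34R and 0.0144 in G34W, limma), the G34W call was lost with median-ratio scaling (0.33, adjusted p = 0.103), and both calls were lost with quantile normalization (adjusted p = 0.104 and 0.207). LBD38 was lower in G34R (-0.29) and higher in G34W (0.30), and the G34W call was lost with median-ratio scaling (0.08, adjusted p = 0.158).

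Of the 5 genes of light input, 3 were lower in G34R minus WT, and in G34W minus WT 1 was higher and 1 lower. The higher gene was HY5, named after its values were seen, at 22.8 TPM in G34W against 18.9 TPM in WT, with overlapping libraries. In G34W minus WT no gene of this role was called higher with median-ratio scaling or quantile normalization. CRY1, a blue-light receptor, was lower in both lines, by -0.37 in G34R (adjusted p = 2.4e-07, limma) and -0.49 in G34W (adjusted p = 9.93e-09). HYH, a bZIP factor close to HY5, gave -0.33 in G34R (adjusted p = 0.000623, limma) and 0.16 in G34W (adjusted p = 0.0514), which was called higher without G34W replicate 2 (0.22, adjusted p = 0.0141), WT replicate 2 (0.20, adjusted p = 0.0317) or WT replicate 3 (0.19, adjusted p = 0.0489). COP1, the ubiquitin ligase that removes HY5 and HYH in the dark, gave -0.31 in G34R (adjusted p = 0.0134, limma) and 0.00 in G34W (adjusted p = 1.0). The COP1 call in G34R was lost without G34R replicate 1 (-0.23, adjusted p = 0.0675), WT replicate 1 (-0.26, adjusted p = 0.0631) or WT replicate 3 (-0.26, adjusted p = 0.0630). None of the 5 genes of the seed coat tannin branch reached 1 TPM.

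Markers of the tissues in a seedling moved as well. All 8 root markers were called higher in both lines, and their summed level was 124 to 149 TPM in G34R and 107 to 116 TPM in G34W, against 45.5 to 49.2 TPM in WT. Of 5 epidermis markers, 4 were lower in G34R, and 3 were lower and 2 higher in G34W, with sums of 2382 to 2437 TPM in G34R and 2356 to 2417 TPM in G34W, against 2749 to 2824 TPM in WT. Of 6 leaf photosynthesis markers, 4 were lower in G34R, and 5 were lower and 1 higher in G34W, with sums of 70781 to 77436 TPM in G34R and 73753 to 75667 TPM in G34W, against 82829 to 83899 TPM in WT. With median-ratio scaling all 5 epidermis markers were called lower in G34W, and all 6 leaf photosynthesis markers in both lines. With quantile normalization 2 leaf photosynthesis markers were called lower in G34R and none higher, and in G34W 3 were lower and 1 higher. Of the epidermis markers, 3 were then lower and 1 higher in G34R, and 2 lower and 2 higher in G34W. The 4 seed and embryo markers summed to 26.4 to 31.6 TPM in G34R and 8.72 to 10.7 TPM in G34W, against 11.7 to 16.6 TPM in WT. Of these, 2 were tested, with CRA1 called higher and EM6 called lower in both lines. CRA1, a seed storage protein gene, averaged 19.8 TPM in G34R and 3.77 TPM in G34W, against 0.304 TPM in WT. EM6, a late embryogenesis gene, averaged 7.67 TPM in G34R and 5.31 TPM in G34W, against 14.6 TPM in WT, so it made up most of the WT sum. CRU3 averaged 1.02 TPM in G34R and 0.508 TPM in G34W and was at 0 in WT, and OLEO1 averaged 0.720 TPM in G34R and 0.225 TPM in G34W, against 0.0443 TPM in WT. The 3 flower markers summed to at most 0.0678 TPM in G34R and 0.175 TPM in G34W, against 0.309 TPM in WT. The part of these markers in the results above was not tested. In whole seedlings, fewer cells of a type and less RNA per cell cannot be told apart.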

How the data were processed

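Per the labels' protocols, RNA of whole seedlings came from a Takara MiniBEST extraction, and sequencing libraries from the NEBNext Ultra kit for RNA. The submitters' processing notes list fastp 0.20.1, HISAT2 2.1.10, DESeq2 1.26.0 and TAIR10. The strand setting and the read counter were not given in the sources used here. The deposited table holds TPM made by the authors, although its column names speak of counts, and each library sums to 1000000. TPM multiplied by gene span gave whole reads (tolerance 1e-06) for 23088 of 23235 genes above 0 (99.4%), all 10 members included.

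Groups and replicates came from the sample titles. The 18544 genes that averaged 1 TPM or more entered a limma fit (version 3.58.1, R 4.3.3) of log2(TPM + 1), with 1 model over the 3 groups, a variance trend and two-sided tests, adjusted by Benjamini-Hochberg over all tested genes at 0.05, and the fit was tested on simulated data. Replicates differed by more than sampling noise. Alternatives were another pseudocount (0.1), no filter or a filter of 5 TPM, median-ratio scaling, quantile normalization, the compared groups alone, no variance trend, a replicate block and each library left out. Positions and promoters were read from the RefSeq TAIR10.1 genome and annotation, with nothing converted, as the table holds no coordinates.

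The 10 members, the pathway and marker lists and the tests were chosen with earlier results of these data known. Named were all members, HTR4, HTR5 and HTR8, up to 3 called genes per pathway role with the smallest adjusted p in a comparison with WT, and the 4 genes most like TT4 and UGT75C1 across libraries. Floors of 3 reads cover counting error only.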

Additional observations from a re-analysis of the deposited data

Results flagged for a closer look

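The effect in G34W and the effect in G34R, each against WT, differed for 4 of the 8 tested genes by the limma test of G34W minus G34R. The difference of log2 fold changes, G34W minus G34R, was 0.75 for TT4, which was higher in 3 of 3 G34W libraries than in any G34R library. It was 0.44 for F3H, whose libraries lay above WT in G34W and below WT in G34R. For FLS1 it was 0.87, with all G34W libraries above all G34R libraries, and for DFR it was -0.57, with all G34W libraries below all G34R libraries. The adjusted p-values ranged between 5.79e-08 (FLS1) and 0.00175 (DFR). Among all tested genes 33.3% were called in that comparison.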

How the results depend on the processing

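Each library rests on 12889624 to 14730745 recovered reads, so genes under 1 TPM such as PAP1 (0 to 15 reads) are measured coarsely. With a pseudocount of 0.1, the late minus early difference in G34W minus WT was -1.42, against -1.28 with a pseudocount of 1. With 1 library left out, the late minus early difference ranged between -0.70 and -0.44 in G34R minus WT, -1.36 and -1.18 in G34W minus WT, and -0.84 and -0.57 in G34W minus G34R, and members called numbered 4 to 5, 7 and 4. Signs turned for values that were not called: F3'H in G34R minus WT without G34R replicate 3 (0.0477) or WT replicate 1 (0.0290; lowest -0.175 without WT replicate 2), LDOX in G34W minus G34R without G34W replicate 1 (0.0612; lowest -0.370 without G34W replicate 3), PAP1 in G34W minus G34R without G34R replicate 2 (0.179) or G34W replicate 2 (0.0909; lowest -0.238), and MYB12 in G34W minus WT with quantile normalization (-0.0347). The same holds in G34W minus WT for UGT89C1 (-0.15 with median-ratio scaling, -0.0723 with quantile normalization), HYH (-0.0600 with median-ratio scaling) and COP1 (-0.21 with median-ratio scaling, -0.19 with quantile normalization, -0.0363 without G34W replicate 3, -0.0988 without WT replicate 2; highest 0.0506 without WT replicate 1), and in G34W minus G34R for MYBL2 (-0.0435 with median-ratio scaling, -0.0350 without G34R replicate 2; highest 0.0956 without G34R replicate 3). The cause was not tested. Settings for PAP1 and MYB12 together with no filter, and those for the named pathway genes, were chosen after seeing the data. Of 1308 alternative values for single genes, 1213 kept direction and side of the threshold, 58 lost a call, 22 gained one and 15 changed sign. Replicate numbers did not pair the samples, as deviations of same-numbered libraries correlated at -0.023 to 0.041. With the replicate block 9569, 10747 and 6238 genes were called in G34R minus WT, G34W minus WT and G34W minus G34R, against 9479, 10727 and 6174 without it, and 5, 7 and 4 members, while the PAP1 call in G34W minus WT was lost with it (adjusted p = 0.0560).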

Other observations

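Over the 9 libraries and 14313 genes that averaged 5 TPM or more, the genes whose levels were most like those of TT4 were STR16 (Pearson r = 0.991), a sulfurtransferase, ACL (0.990), UMAMIT17 (0.987), a transporter of the UMAMIT family, and FIB2 (0.984), a fibrillarin of the nucleolus. STR16 averaged 358 TPM in G34R and 503 TPM in G34W, against 361 TPM in WT, and FIB2 averaged 27.4 TPM in G34R and 49.3 TPM in G34W, against 28.4 TPM in WT. The genes most like UGT75C1 were SCRM2 (0.983), a bHLH factor of stomatal development, AAP5 (0.983), an amino acid permease, ARF10 (0.978), an auxin response factor, and WNK6 (0.977), a kinase. SCRM2 averaged 44.9 TPM in G34R and 49.5 TPM in G34W, against 61.3 TPM in WT, and AAP5 averaged 18.8 TPM in G34R and 20.5 TPM in G34W, against 28.5 TPM in WT. These correlations are taken over libraries that share 3 groups, and no p is given.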
